A study of Mus musculus with 16 samples.

Results

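Expression of 10 genes of uptake and clearance was followed in the developing adrenal gland of Dicer knockout (KO) and control mouse embryos: *Lgals3*, *Cd163*, *Msr1*, *Mrc1*, *Stab1*, *Cd36*, *Mertk*, *Axl*, *Gas6* and *Gpnmb*. They were chosen by name, with earlier results of these data known, as the probe sets annotated to these 10 symbols. In all 18193 genes had a probe set of their own symbol. The 10 genes had 18 probe sets, and all 10 lay above the filter on dim probe sets that left 13642 genes tested. The KO embryos carried Sf1-Cre and 2 floxed Dicer alleles (Sf1-Cre/Dicer lox/lox), so that Dicer, which makes mature microRNAs, was deleted where the Sf1 regulatory region drives Cre; in the gland this includes the cortex, and a deletion in macrophages is not what this driver is used for. The control embryos were littermates without Cre, called WT in the labels, from matings in which the parents carried floxed Dicer alleles, on a C57BL/6 background. Adrenals of 1 genotype from 1 litter were pooled, and 4 pools each were profiled on Mouse430_2 arrays for KO and control at E15.5 and for KO and control at E16.5, 16 arrays in all. Values are log2 signals after RMA, so that a difference of 1 is a doubling. A gene is said to have passed where limma gave it an adjusted p under 0.05 among the 13642 genes, and the arrays' number (4 per group) limits the precision.

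Macrophages of fetal organs take up dying cells, debris and modified lipoproteins through several families of surface receptors. Scavenger receptors such as those encoded by *Msr1*, *Cd36*, *Cd163* and *Stab1* bind polyanionic or lipid cargo, haemoglobin complexes or extracellular proteins, and the mannose receptor encoded by *Mrc1* binds glycoproteins. The receptor tyrosine kinases Mertk and Axl recognise dying cells through the bridging protein Gas6, which binds exposed phosphatidylserine. Galectin 3 (*Lgals3*) is a secreted and cytoplasmic lectin for beta-galactosides that macrophages make in quantity, and *Gpnmb* encodes a transmembrane glycoprotein of macrophages with a loaded lysosome system. Several of these genes are not restricted to macrophages: *Cd36* and *Stab1* are used by endothelium, *Axl* and *Gas6* by mesenchyme and vessel wall.

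*Lgals3* had the largest difference of the 10 genes at either stage. At E15.5 its log2 signal was 7.72, 8.24, 7.72 and 8.74 in KO glands, against 6.58, 6.80, 7.001 and 6.89 in control glands. At E16.5 it was 9.65, 9.88, 10.02 and 10.04 in KO glands, against 7.92, 7.13, 7.63 and 7.19 in control glands. All 4 KO values lay above all 4 control values at each stage, and the E16.5 KO values also lay above those of every other group. The difference was 1.29 at E15.5 (SE 0.22, adjusted p = 0.00138 in limma), a 2.44-fold higher signal in KO, and 2.43 at E16.5 (SE 0.22, adjusted p = 1.96e-06), a 5.39-fold higher signal. In order of size these were the 24th and the 3rd highest KO minus control differences among the genes tested. Within 4 arrays of a group, *Lgals3* varied most among E15.5 KO pools (SD 0.49) and least among E15.5 control pools and E16.5 KO pools (SD 0.18 in both).

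At E16.5, 3 receptor genes rose beside *Lgals3*. *Msr1*, the class A scavenger receptor, had log2 signals of 8.12, 7.98, 7.89 and 8.04 in KO glands, against 7.01, 7.25, 6.96 and 6.998 in control glands, a difference of 0.95 (SE 0.10, adjusted p = 8.48e-06). *Mrc1* had 8.96, 8.82, 9.15 and 8.79 in KO glands, against 8.26, 8.41, 7.94 and 8.34 in control glands, a difference of 0.69 (SE 0.14, adjusted p = 0.00324). *Mertk*, the efferocytosis receptor, had 8.13, 7.86, 8.22 and 8.13 in KO glands, against 7.29, 7.84, 7.63 and 7.74 in control glands. For all 3 receptors every KO value lay above every control value, by the narrowest gap for *Mertk*, whose lowest KO value was 7.86 and highest control value 7.84. Its difference of 0.46 (SE 0.12, adjusted p = 0.0225) was the smallest of the 4 that passed. The *Mertk* call was lost in 10 of 19 other settings and its sign turned in 1, the scale set by macrophage markers described further on (adjusted p from 3.51e-05 to 1 over the 19). It was lost with quantile normalization (0.0637) and in a fit of the 2 groups alone (0.0913), and without KO replicate 1, 3 or 4 or control replicate 1 or 3 (0.0504 to 0.0767). The *Mrc1* call was lost where limma's treat tested for a change larger than a minimum of 0.358 (adjusted p = 0.407).

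In all, 4 of the 10 genes rose at E16.5 and none fell, where 10.5% of all genes tested passed, 6.99% higher and 3.56% lower in KO. Because the 10 genes were chosen with earlier results of these data known, such shares are background and no test of the list. The median difference of the 10 genes was 0.37, against 0.08 over all genes tested. At E15.5 the corresponding count was 1 higher, *Lgals3*, and none lower, where 5.86% of genes passed, 3.69% higher and 2.18% lower; the medians were 0.13 for the 10 genes and 0.07 over all genes. Groups that did not overlap were seen for 2 genes higher at E15.5 (*Lgals3* and *Msr1*, background 9.79%), for 1 lower (*Cd163*, background 4.7%) and for 4 higher and none lower at E16.5 (background 10.4% and 4.76%). *Lgals3* was the only one of the 10 that both passed and was at least 2-fold higher in KO, at E15.5 (0.418% of all genes) and at E16.5 (0.902%). Of all calls, 503 were higher and 297 lower at E15.5; with arrays centred on their 75th percentile the split was 276 to 372, and after quantile normalization 372 to 351. At E16.5 the split was 954 to 485 as deposited, 449 to 605 after that centring and 607 to 571 after quantile normalization.

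**Figure D1:**
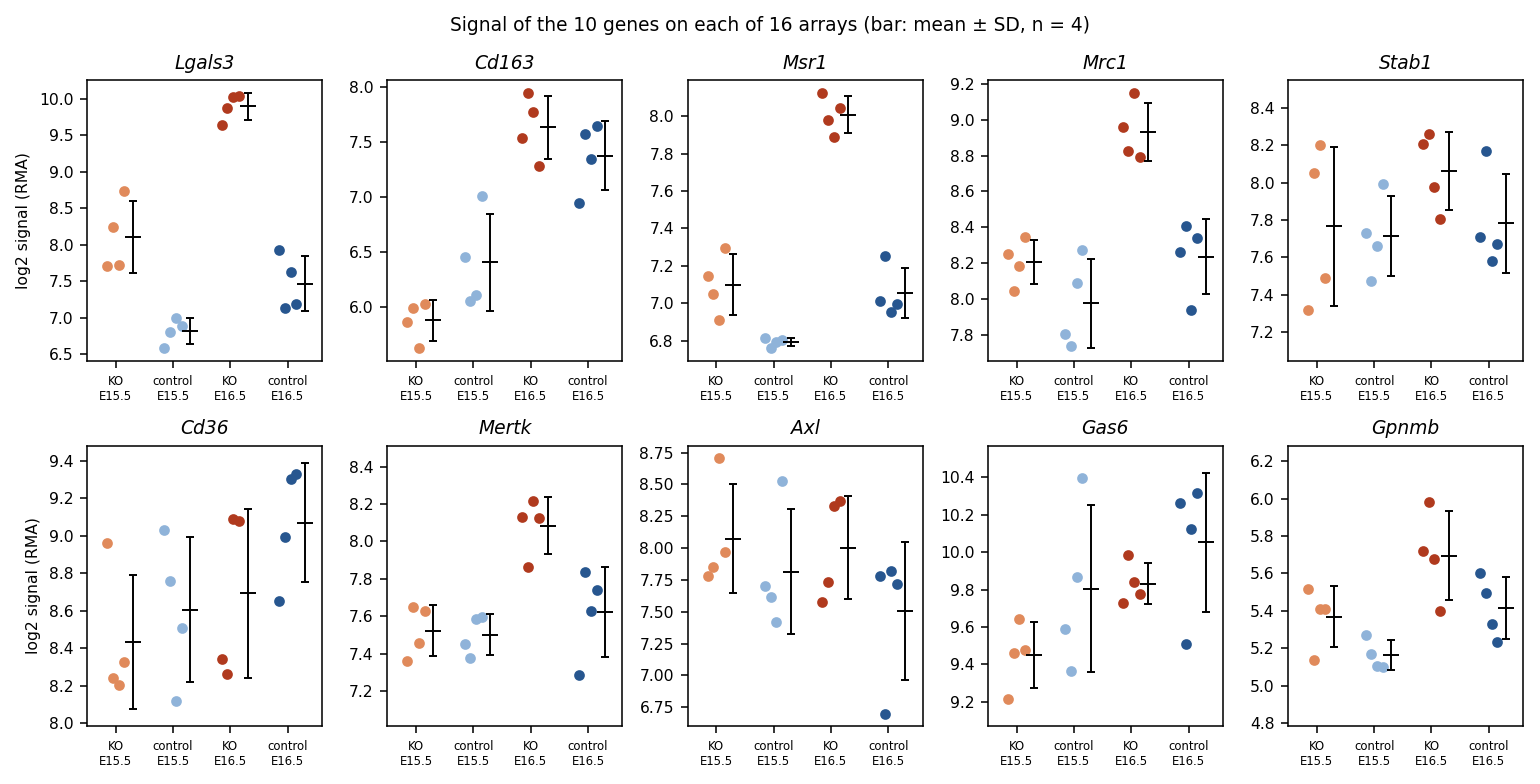
Log2 signal (RMA, vertical axis, a separate range for each gene) of the 10 genes on each array; points are single pools in the 4 groups, and the bar beside them is the mean ± SD (n = 4). *Lgals3*, *Msr1*, *Mrc1* and, by a narrow gap, *Mertk* show all E16.5 KO pools above all other pools, while *Cd163* is high in both groups at E16.5.

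The start regions of *Lgals3*, *Mrc1* and *Mertk*, genes that rose together at E16.5, are shown because they are the sequences from which those transcripts begin, as given by RefSeq for GRCm38.p6. Of the 10 genes 9 matched an entry, and *Msr1*, which also rose at E16.5, did not. Each region shown is the 300 bases from 250 before to 50 after the start, read 5′ to 3′ on the gene's strand. Capitals mark GAGGAA, the core bound by ETS family factors such as PU.1, on either strand (it reads TTCCTC on the other).
Lgals3, chr14:47373610-47373909, plus strand: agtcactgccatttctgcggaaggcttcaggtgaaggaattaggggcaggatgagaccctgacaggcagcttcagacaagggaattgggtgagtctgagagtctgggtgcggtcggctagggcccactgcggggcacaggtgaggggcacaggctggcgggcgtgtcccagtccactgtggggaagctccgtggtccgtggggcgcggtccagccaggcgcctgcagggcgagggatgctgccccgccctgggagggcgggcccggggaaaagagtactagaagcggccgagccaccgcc
Mrc1, chr2:14229164-14229463, plus strand: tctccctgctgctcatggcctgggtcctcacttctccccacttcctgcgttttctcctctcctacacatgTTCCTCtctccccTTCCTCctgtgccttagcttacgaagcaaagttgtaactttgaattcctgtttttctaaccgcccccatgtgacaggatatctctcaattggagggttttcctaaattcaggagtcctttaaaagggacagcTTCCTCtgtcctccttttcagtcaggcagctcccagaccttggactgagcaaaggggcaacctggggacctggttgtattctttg
Mertk, chr2:128698665-128698964, plus strand: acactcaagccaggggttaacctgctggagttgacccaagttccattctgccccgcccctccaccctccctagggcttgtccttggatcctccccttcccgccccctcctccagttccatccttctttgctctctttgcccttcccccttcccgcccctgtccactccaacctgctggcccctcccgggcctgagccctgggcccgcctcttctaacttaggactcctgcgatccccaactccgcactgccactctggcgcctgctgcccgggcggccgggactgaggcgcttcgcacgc
The *Mrc1* window held 3 matches, and the *Lgals3* and *Mertk* windows none. Over the 9 genes with an entry, GAGGAA was present in 3 (*Mrc1*, *Stab1* and *Axl*), and 28.3% of all 32851 start regions in the RefSeq table hold it. The longer form GAGGAAGT, which contains GAGGAA, was in none of the 9 and in 3.2% of all regions. The AP-1 motif TGANTCA was in 1 of the 9, *Gpnmb* (7.81% of all regions), and TCACGTG and TCATGTG, the E-box and M-box forms bound by MiTF family factors, were in none (3.77% each). The general E-box CANNTG, of which the preceding 2 are special cases, was in 7 of the 9 and in 72.3% of all regions. Both strands were searched, and a match is a description of these letters only.

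*Cd163* encodes the receptor for haptoglobin and haemoglobin complexes. At E15.5 its log2 signal was 5.86, 5.99, 5.62 and 6.03 in KO glands, against 6.45, 6.05, 6.10 and 7.004 in control glands. The KO values all lay lower, the closest pair being 6.03 in KO and 6.05 in control. The difference of −0.53 (SE 0.21, adjusted p = 0.164) did not pass. At E16.5 it was 7.53, 7.94, 7.77 and 7.28 in KO glands, against 6.94, 7.57, 7.34 and 7.64 in control glands, a difference of 0.26 (adjusted p = 0.501) with overlapping groups. The difference between the stages' KO effects was 0.79 (SE 0.29, adjusted p = 1).

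*Msr1* at E15.5 had 7.14, 7.05, 6.91 and 7.30 in KO glands, against 6.81, 6.76, 6.80 and 6.80 in control glands. These groups did not overlap, and the control pools were close together (SD 0.02), but the difference of 0.31 (SE 0.10) missed the threshold with an adjusted p of 0.0792. It passed without KO replicate 3 (0.37, adjusted p = 0.045) and with arrayWeights (0.34, adjusted p = 0.0211). *Mrc1* differed by 0.23 (95% interval −0.06 to 0.52) and *Mertk* by 0.02 (−0.24 to 0.28) at E15.5, with overlapping groups.

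The remaining 5 genes passed at neither stage. With arrayWeights 3 of them passed at E16.5, where 4938 of all 13642 genes did, so that a call in that setting is common. These were *Stab1* (0.37, adjusted p = 0.0213) and *Gpnmb* (0.27, adjusted p = 0.0202) higher in KO and *Gas6* (−0.31, adjusted p = 0.0314) lower. *Stab1*, which encodes the scavenger receptor stabilin 1, differed by 0.05 at E15.5 (95% interval −0.35 to 0.46) and 0.28 at E16.5 (−0.12 to 0.68). *Gpnmb* differed by 0.21 (−0.06 to 0.47) and 0.28 (0.02 to 0.54; adjusted p = 0.178), and its signal was close to the dim end of the arrays, above the 40th percentile on 12 of 16 arrays. *Axl* differed by 0.26 (−0.36 to 0.88) and 0.50 (−0.13 to 1.12). Its ligand gene *Gas6* lay lower in KO glands at both stages, by −0.36 (−0.78 to 0.07) and −0.22 (−0.64 to 0.20). The *Gas6* log2 signal at E15.5 was 9.21, 9.46, 9.64 and 9.47 in KO glands, against 9.59, 9.36, 9.87 and 10.40 in control glands, with overlap. *Cd36*, the receptor for oxidised lipoproteins and long-chain fatty acids, differed by −0.17 (−0.69 to 0.34) and −0.38 (−0.89 to 0.14).

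**Figure D2:**
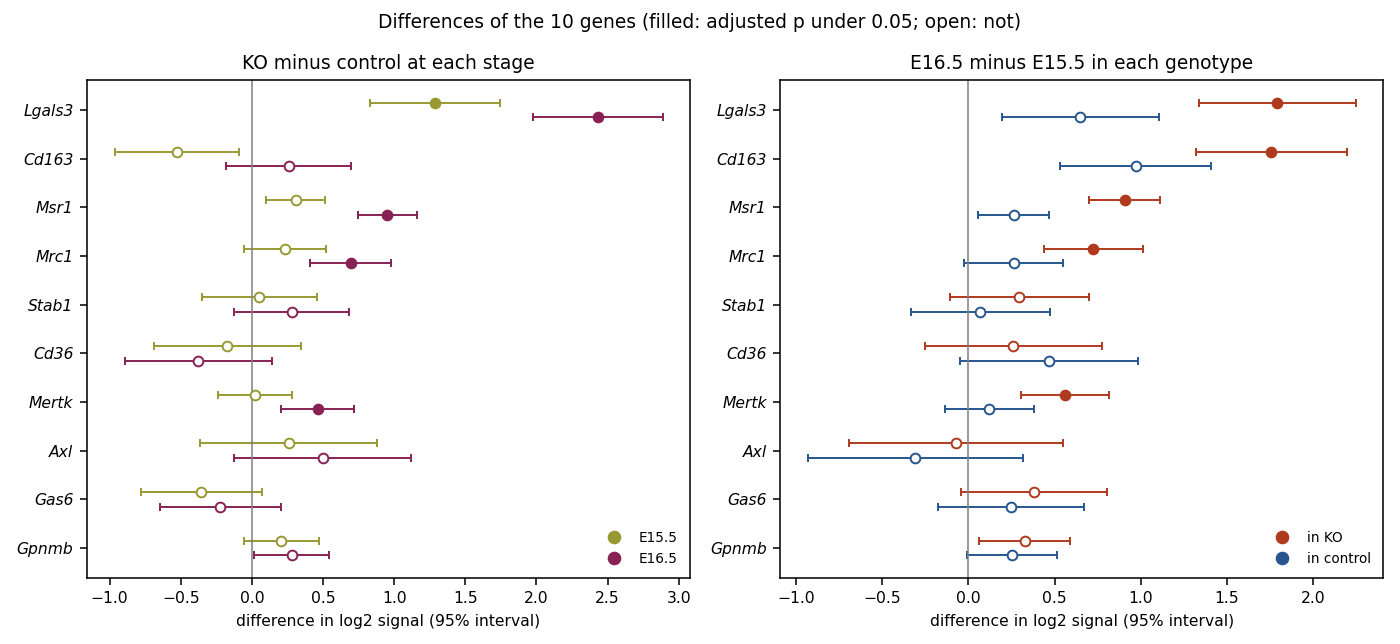
Difference in log2 signal (horizontal axis) with its 95% interval from limma for each gene: left, KO minus control at E15.5 and at E16.5; right, E16.5 minus E15.5 in KO and in control. Filled points had an adjusted p under 0.05. Filled points are *Lgals3* at both stages, 3 more genes at E16.5, and 5 genes over the day in KO.

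Probe sets of the same gene gave KO minus control differences of the same sign at each stage, but not of the same size. The 3 further *Msr1* probe sets had KO minus control differences of 0.41, 0.13 and 0.69 at E16.5, against 0.95 for the brightest. The probe set with 0.69 was below the dim filter, yet its KO values of 4.17, 4.02, 4.26 and 4.17 lay above its control values of 3.31, 3.62, 3.53 and 3.37. The further *Cd36* probe sets differed by −0.24 and −0.53 at E15.5 and by −0.62 and −0.46 at E16.5. For the dimmer of them the E15.5 KO values (5.30, 4.99, 4.98 and 4.95) all lay below the control values (5.70, 5.63, 5.57 and 5.46), with an adjusted p of 0.139 when every probe set was tested on its own. The second *Gas6* probe set differed by −0.30 at E15.5 (adjusted p = 0.101) and by −0.13 at E16.5 (adjusted p = 0.528). In that test over all probe sets above the filter, no probe set of the 10 genes passed for KO against control apart from the brightest ones of *Lgals3*, *Msr1*, *Mrc1* and *Mertk*.

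Over the day from E15.5 to E16.5, 5 of the 10 genes rose in KO glands and none fell, where 0.902% of all genes tested passed, 0.872% higher and 0.0293% lower. *Lgals3* rose by 1.79 (SE 0.22, adjusted p = 0.000737), *Cd163* by 1.76 (SE 0.21, adjusted p = 0.000735), *Msr1* by 0.91 (SE 0.10, adjusted p = 0.000735), *Mrc1* by 0.72 (adjusted p = 0.0149) and *Mertk* by 0.56 (adjusted p = 0.0369). *Lgals3* and *Cd163* had the 3rd and the 4th highest day change in KO glands among all genes tested, and they were the only 2 of the 10 that passed with at least a 2-fold rise (0.198% of all genes; in control glands none of the 10 did, against 0.022%). For 6 of the 10 genes all E16.5 KO values lay above all E15.5 KO values, the 5 above and *Gas6* (0.38, adjusted p = 0.607), against a background of 5.53%; none had them all below (2.24%). The *Mertk* call was lost in 9 of 17 other settings, with adjusted p up to 0.148. Among these were the fits with any 1 of KO E15.5 replicates 1 to 3 or KO E16.5 replicates 1, 3 and 4 left out, with the 2 groups alone (0.0647) and with every probe set tested (0.0634). The *Mrc1* call was lost without KO E15.5 replicate 2 (0.072) or KO E16.5 replicate 3 (0.0742).

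In control glands none of the 10 passed for the day in limma, where 0.0953% of all genes did, 0.044% higher and 0.0513% lower. Of the 10, 3 had an unadjusted p under 0.05 in limma, all higher, as had 1071 of all 13642 genes. With arrayWeights 4 of the 10 passed, as did 1102 of all genes. *Cd163* was higher by 0.97 (SE 0.21, adjusted p = 0.107), *Lgals3* by 0.65 (SE 0.22, adjusted p = 0.333) and *Msr1* by 0.26 (SE 0.10, adjusted p = 0.433). *Lgals3* and *Msr1* had all E16.5 control values above all E15.5 control values (background 2.31%, and 1.68% for lower). The *Cd163* groups overlapped only through E15.5 control replicate 4 (7.004) and E16.5 control replicate 1 (6.94), and without that E15.5 array *Cd163* was higher by 1.17 (adjusted p = 0.0269). The median day change of the 10 genes was 0.47 in KO and 0.26 in control, against 0.01 over all genes in each.

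Whether the KO effect changed between the stages was tested directly. None of the 10 passed in limma, nor did any of the 13642 genes (background 0%), while 5 of the 10 and 258 of all genes had an unadjusted p under 0.05. With arrayWeights 6 of all genes passed, among them *Msr1* (0.68, adjusted p = 0.0394). *Lgals3* had the 2nd highest value of all genes tested, 1.14 (SE 0.30, 95% interval 0.50 to 1.79, unadjusted p = 0.00173 and adjusted p = 1 in limma). The value was 0.65 for *Msr1* (SE 0.14), 0.46 for *Mrc1* (SE 0.19) and 0.44 for *Mertk* (SE 0.17). These 4 genes were higher at E16.5 than at E15.5 in their KO effect without the difference passing the correction.

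Macrophage marker genes moved with these results. Of 14 markers (such as *Csf1r*, *Adgre1*, *Aif1* and *Tyrobp*), 13 were tested; 13 rose in KO glands at E16.5 (median 1.20) and 8 at E15.5 (median 0.93), and none fell. Their summed linear signal ranged from 6468 to 7302 in KO and 3028 to 4100 in control glands at E15.5, and from 9005 to 11082 in KO and 3941 to 4839 in control glands at E16.5. *Itgam*, the 14th marker, was below the dim filter. In pooled whole glands more macrophages and more RNA per macrophage cannot be told apart, and the part of macrophage number in the changes of the 10 genes was not tested. When each array was set relative to the mean of its 14 markers, a scale chosen after the data were seen, the *Lgals3* difference was 0.58 at E15.5 (SE 0.18, adjusted p = 0.00628) and 1.38 at E16.5 (SE 0.18, adjusted p = 1.6e-06); this describes *Lgals3* relative to these markers and does not separate cell number from RNA per cell. On that scale *Msr1* differed by −0.40 (adjusted p = 0.0296) and −0.10 (adjusted p = 0.546), *Mrc1* by −0.48 and −0.36, *Mertk* by −0.69 and −0.59, *Cd163* by −1.24 and −0.80, *Cd36* by −0.88 and −1.43 and *Gas6* by −1.07 and −1.28 at E15.5 and E16.5. A negative value there means that the gene's difference was smaller than that of the markers. Every gene tested is shifted by the marker difference on that scale, and the adjustment runs over all of them. Its adjusted p-values are therefore not comparable with those on the deposited scale.

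**Figure D3:**
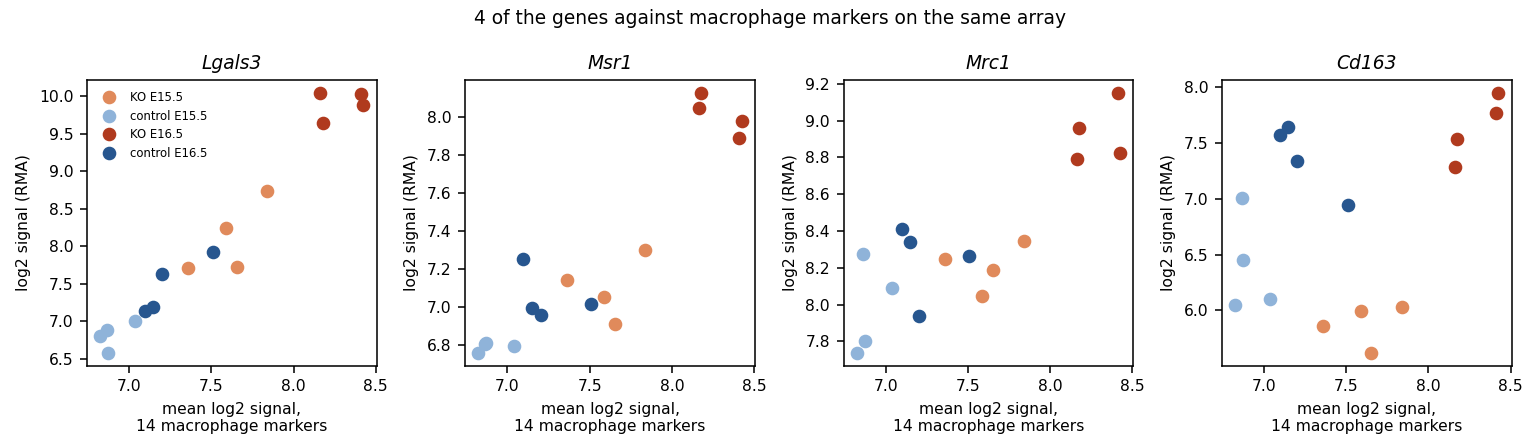
Log2 signal of *Lgals3*, *Msr1*, *Mrc1* and *Cd163* (vertical axes) against the mean log2 signal of 14 macrophage markers on the same array (horizontal axis), 1 point for each of 16 arrays, coloured by group. The marker mean was 7.36 to 7.84 in E15.5 KO, 6.82 to 7.04 in E15.5 control, 8.16 to 8.43 in E16.5 KO and 7.10 to 7.51 in E16.5 control arrays; *Cd163* had overlapping KO and control values at E16.5.

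Markers of endothelium and mesenchyme, which also use some of these genes, gave no calls between genotypes, while markers of some other cell types did. None of 10 vascular endothelial markers passed at either stage (medians 0.14 and 0.26), nor did any of 5 lymphatic and sinusoidal endothelial markers (0.11 and 0.24) or of 9 capsule and mesenchyme markers (0.08 and 0.24). The summed mesenchyme signal at E16.5 was 27193 to 32966 in KO and 21605 to 26083 in control glands, without overlap. The chromaffin sum did not overlap either, at 23503 to 26594 in KO and 16009 to 22146 in control glands at E15.5 and at 26687 to 35373 in KO and 16534 to 25453 in control glands at E16.5. The cortex sum at E16.5 was lower without overlap, at 36771 to 50707 in KO and 56543 to 69927 in control glands. The part of these cell types in the results was not tested. Among 5 monocyte and neutrophil markers tested, *Ccr2* rose at E16.5. Of 8 cortex markers 3 fell at E15.5 and 5 at E16.5, where 2.18% and 3.56% of all genes tested fell. Of 6 chromaffin markers *Chga* and *Dbh* rose at E16.5, where 6.99% of all genes tested rose, and of 4 Schwann and melanoblast markers *Erbb3* did. Of 4 erythroid markers 0 passed in either comparison of genotypes. The 3 adipocyte markers with a probe set were all below the dim filter.

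Lists of genes related to the 10 by function are given beside the share of all genes that passed, which was 3.69% higher and 2.18% lower at E15.5 and 6.99% higher and 3.56% lower at E16.5. The lists too were chosen with earlier results of these data known. Of 15 other scavenger receptors tested, 1 rose and 1 fell at E15.5 and 5 rose and 1 fell at E16.5, with medians of 0.17 and 0.28. *Marco*, a class A receptor of macrophages like *Msr1*, rose by 0.86 and 1.13, with mean log2 signals of 5.13 in KO and 4.28 in control glands at E15.5 and 5.49 in KO and 4.36 in control glands at E16.5. Its control means lay below the arrays' 40th percentiles (5.11 to 5.21), so that it entered the test through KO arrays and the size of its difference is uncertain. *Cd68* rose by 1.68 at E16.5, and *Megf10*, an engulfment receptor known from glia and muscle, fell by 1.06 at E15.5 and fell by 1.09 at E16.5. Of 6 other lectin receptors 2 rose at E15.5 and 4 at E16.5, led by the beta-glucan receptor gene *Clec7a* (0.90 and 1.80) and *Clec4n* (1.10 and 1.31), with *Cd302* at 0.69 at E16.5. None of the 8 other galectin and galectin binding genes passed at either stage (medians 0.08 and 0.10), and *Lgals1* differed by −0.02 and 0.00.

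Of 22 other genes of dying cell clearance, 1 rose at E15.5, the complement gene *C1qb* (0.74), and 4 at E16.5, with *C1qa* (1.67), *C1qc* (1.56) and *C1qb* (1.41) the highest; the list's medians were 0.11 and 0.10. Of 10 genes of haem and iron handling, 2 rose at E15.5, *Spic* (0.85) and *Slc11a1* (0.67), and 3 at E16.5: *Spic*, a transcription factor of iron-recycling macrophages (1.35), the iron exporter gene *Slc40a1* (1.29) and the phagosomal metal transporter gene *Slc11a1* (1.14). Of 10 lipid handling genes, 1 rose at E15.5, the lipid droplet gene *Plin2* (0.61), and 5 at E16.5, among them the cholesterol exporter gene *Abcg1* (0.84), *Plin2* (0.69) and the lipoprotein lipase gene *Lpl* (0.56). Of 9 MiTF family and lysosomal genes 0 passed at E15.5, and at E16.5 *Acp5*, the tartrate-resistant phosphatase (1.15), and *Tfec* (1.12) rose while *Mitf* fell by 0.62. *Tfec* averaged 6.03 in KO and 4.92 in control glands at E16.5, its control mean also below the 40th percentiles, and the size of its difference has the same limit. Several of these genes, such as *Cd68* and *C1qa*, are macrophage markers as well.

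**Figure D4:**
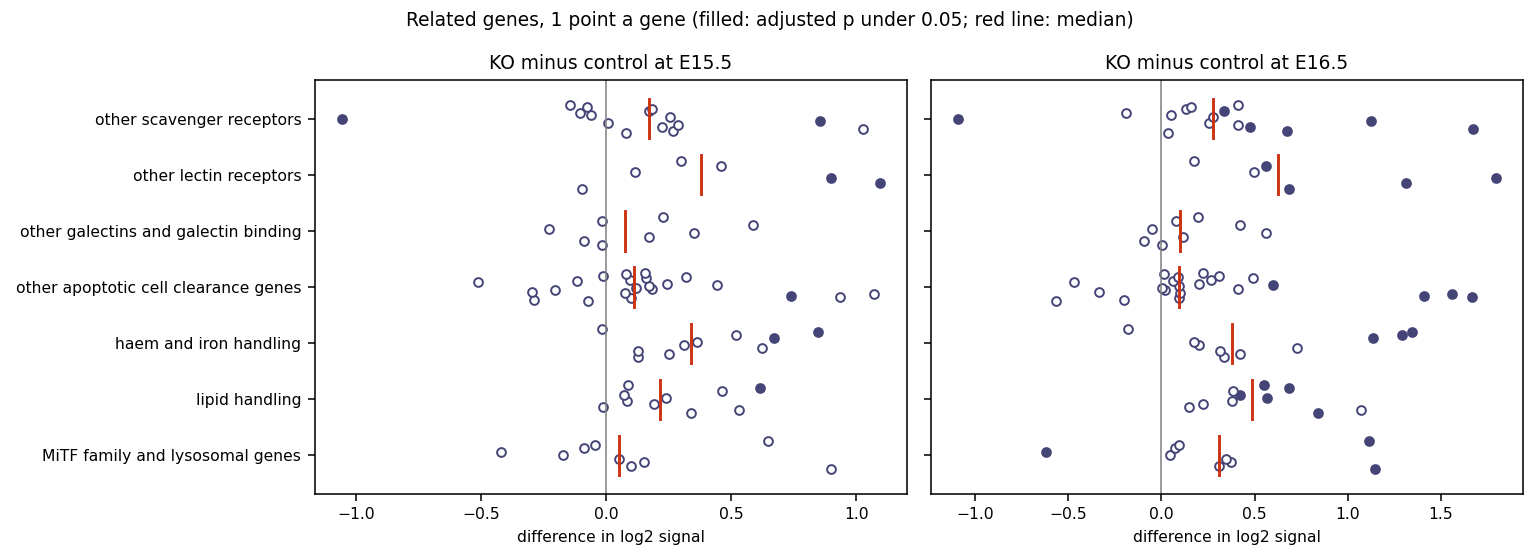
KO minus control difference in log2 signal (horizontal axis) of related genes at E15.5 (left) and E16.5 (right), 1 row for each list and 1 point for each gene tested; filled points passed at an adjusted p under 0.05, and the red line is the list's median. Filled points lie mostly to the right of 0, and the galectin row holds none.

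Over the day in KO glands *Clec7a* (1.12), *C1qb* (1.14), *Slc40a1* (1.12) and *Slc11a1* (0.63) rose, as did 4 of 10 lipid genes, with *Lpl* (0.79), *Abcg1* (0.71) and *Lipa* (0.66) the highest. Of all genes tested 0.872% rose. No gene of the 7 related lists passed for the day in control glands in limma, where only 0.0953% of all genes tested did. None of the genes tested passed for the difference of the KO effects, so the day changes of KO and control were not shown to differ.

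The genes with the profile most like that of *Lgals3* over the 16 arrays were *Ccl6* (Pearson r = 0.98), *Cd84* (0.98), *Arhgap30* (0.98), *Mst1r* (0.98) and *Mpeg1* (0.98); the arrays share their groups, so that a common difference between groups raises r. With the 4 group means removed the closest were *Alox5ap* (0.85), *Ccl6* (0.82), *Srgn* (0.81), *Rmdn1* (0.80) and *Arhgap30* (0.79). *Msr1* was closest to *Fyb* and *Laptm5* (0.96 each), *Mrc1* to *Cd86* and *Selenop* (0.92 each), *Mertk* to *Maf* (0.92) and *Adap2* (0.90), and *Cd163* to *Scn7a* (0.90) and *Ms4a4d* (0.89). *Gpnmb* was closest to *Ccl24* (0.94) and *Rtl5* (0.87), *Axl* to *Dalrd3* (0.93) and *Orai3* (0.92), *Stab1* to *Sympk* (0.89) and *Nfic* (0.86), *Cd36* to *Mmut* (0.85) and *Saraf* (0.84), and *Gas6* to *C1ra* (0.83) and *Jph4* (0.82). Among the 10 themselves *Lgals3* and *Msr1* were most alike over the 16 arrays (0.93), yet only 0.10 once the group means were removed, and *Axl* and its ligand gene *Gas6* were most alike after that removal (0.72). *Axl* (6.70) and *Gas6* (9.51) were both lowest of their group in E16.5 control replicate 2, the array that stood apart in RNA integrity (below). Both were highest of their group in E15.5 control replicate 4 (8.53 and 10.40). How far their r rests on these arrays was not tested. The correlations are descriptions over 16 arrays, without a test.

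The arrays correlated at 0.97 or more within each group. *Dicer1* itself had log2 signals of 8.002 to 8.36 in KO and 8.50 to 8.64 in control glands at E15.5, and 8.09 to 8.42 in KO and 8.45 to 8.83 in control glands at E16.5, without overlap; the position of this probe set against the deleted exons was not analysed here, and the pools hold cells in which Cre is not active. Mean signals were 6.35 to 6.37 in KO and 6.30 to 6.32 in control arrays. Control E16.5 replicate 2 stood apart in its 3′ minus 5′ log2 signal, taken over the array's own *Gapdh* and beta-actin control probe sets as a measure of RNA integrity (3.15, against 0.19 to 1.62 in the other arrays). Without it the E16.5 differences were 2.32 for *Lgals3*, 1.02 for *Msr1*, 0.75 for *Mrc1* and 0.53 for *Mertk*, with adjusted p from 6.04e-06 to 0.0105, and those of *Axl* (0.23) and *Gas6* (−0.40) still did not pass.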

How the data were processed

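Per the submitters' processing notes, the authors made the deposited values with RMA, and the notes also name limma, without saying for what; no version of either is given in the sources used here. The deposited table holds log2 signals of 45101 probe sets, and it is not stated whether all 16 arrays were run together. RMA compresses dim signals towards the background, so that a change near the floor is understated. No normalization was added. The platform's annotation named the genes, with symbols updated by gene identifier for 34741 of 34945 probe sets with 1 symbol; 932 had several and 9160 none, and these named no gene. The probe set with the highest mean stood for a gene, and a gene was tested when its signal exceeded the array's 40th percentile in 4 or more arrays. Means of the 4 groups were fitted to all 16 arrays with limma 3.58.1 in R 4.3.3, moderated with eBayes, two-sided, with Benjamini-Hochberg adjustment over 13642 genes. SE is the moderated standard error and intervals are 95% without adjustment. Every adjusted p comes from this fit unless another setting is named. The fit was tested on simulated data.

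The 10 genes, the related lists and the markers were chosen with earlier results of these data known. All 10 genes are named; of each related list up to 3 genes with the largest change among those that passed, with *Lgals1* and the single calls *Ccr2*, *Erbb3*, *Chga* and *Dbh* named after their values were seen; of similar profiles the 5 genes with the highest Pearson r for *Lgals3* and the 2 highest for every other gene. Alternatives were quantile normalization, centring on the 75th percentile, other dim filters, all probe sets averaged or tested singly, and the replicate number as a block. Further ones were a minimum change in limma's treat, only the 2 groups compared, arrayWeights and each array left out. That minimum was 0.37 at E15.5 and 0.358 at E16.5. It was the 90th percentile of the absolute KO minus control differences among the dimmest 20% of probe sets. The labels do not say that a replicate number marks a litter. The p-values measure the spread between pools from separate litters. Start regions were taken from RefSeq (GRCm38.p6); no array scan dates were used.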

Additional observations from a re-analysis of the deposited data

Results flagged for a closer look

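Over the 10 genes and 4 groups, 40 groups of 4 arrays were looked at, and 2 held an array far from the other 3 by Dixon's test at its 95% level, which chance gives in about 1 in 20 groups. *Axl* had a log2 signal of 6.70 in E16.5 control replicate 2, against 7.72 to 7.82 in the other 3 control arrays of that stage. That array is also the one with the highest 3′ minus 5′ signal (3.15), and without it the E16.5 KO minus control difference of *Axl* was 0.23 (adjusted p = 0.65 in limma), against 0.50 with it. *Cd36* had a log2 signal of 8.96 in E15.5 KO replicate 1, against 8.20 to 8.33 in the other 3 KO arrays of that stage.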

How the results depend on the processing

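Without the scale set by macrophage markers, 930 values of the 10 genes were recomputed. Of these 873 kept their direction and side of the threshold, 22 lost the call, 11 gained it and 24 changed sign, none of the 24 where the value had passed. The counts of the 10 genes that passed were 1, 4, 0, 5 and 0 (KO against control at E15.5 and E16.5, the difference between these, and the day in KO and in control). With arrayWeights they were 2, 7 (6 higher and 1 lower), 1, 5 and 4. Requiring the minimum change in treat left 2 at E16.5. On the scale set by macrophage markers, added after seeing the data, 9 passed at E15.5, of which 8 lay lower in KO and 1 higher. At E16.5 8 passed, of which 7 lay lower and 1 higher. That scale takes the marker mean's KO minus control difference from every gene, so an unchanged gene lies lower on it. The share of all genes that passed on it was not counted, so these counts do not set the 10 genes apart. On the deposited scale, leaving out single arrays gave 1 to 2, 3 to 4, 0 to 0, 3 to 5 and 0 to 1.

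Over all genes the counts were 800, 1439, 0, 123 and 13. They were 1688 and 2355 at the 2 stages without a dim filter, and 414 and 899 with a stricter one (8 for the day in control). With every probe set tested they were 1401 and 2189 (2 for the day in control), and with the minimum change in treat 119 and 243. With only 2 groups fitted they were 817 at E16.5, 73 for the day in KO and 0 in control. With arrayWeights they were 1350, 4938, 6, 435 and 1102. Leaving out single arrays gave 588 to 666, 935 to 1705, 0 to 0, 53 to 146 and 0 to 19.

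Apart from the macrophage marker scale, changes of sign concerned values that had not passed. At E15.5 *Stab1* was −0.0147 and *Mertk* −0.0384 after quantile normalization, and −0.0256 and −0.0549 after centring on the 75th percentile. With arrayWeights the difference of the KO effects was −0.0424 for *Gas6*, and the day change was 0.22 for *Axl* in KO, and 0.10 for *Axl* and −0.07 for *Stab1* in control. Leaving out single arrays, the E15.5 difference ranged from −0.094 to 0.20 for *Stab1* and from −0.0202 to 0.0754 for *Mertk*. The difference of the KO effects ranged from −0.0315 to 0.447 for *Axl*, from −0.0625 to 0.282 for *Gas6* and from −0.0221 to 0.172 for *Gpnmb*. The day change ranged from −0.195 to 0.138 for *Axl* in KO and from −0.0608 to 0.16 for *Stab1* in control. On the macrophage marker scale *Msr1* was −0.40 and −0.10, *Mrc1* −0.48 and −0.36, *Stab1* −0.66 and −0.78, *Mertk* −0.69 and −0.59, *Axl* −0.45 and −0.56, *Gpnmb* −0.50 and −0.78 at E15.5 and E16.5, and *Cd163* −0.80 at E16.5, while *Cd36* (−0.88 and −1.43) and *Gas6* (−1.07 and −1.28) kept their sign. On that scale the changes of sign follow from subtracting the marker mean. It averaged 7.61 in KO and 6.90 in control arrays at E15.5, and 8.29 in KO and 7.24 in control arrays at E16.5. The cause of the changes in the other settings was not tested.

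With the replicate number as a block, *Mertk* lost its call at E16.5 (0.46, adjusted p = 0.0597) and for the day in KO (0.56, adjusted p = 0.0511), and the block changed no other call among the 10 genes. Same-numbered KO and control pools had correlations of their deviations from −0.39 to 0.39 at E15.5 and from −0.20 to 0.45 at E16.5, so the numbers were not taken as pairs. Differently numbered pools ranged from −0.39 to 0.42 at E15.5 and from −0.41 to 0.41 at E16.5. At E16.5 the highest of these joined replicates 1 and 2 (0.36 and 0.40) and replicates 3 and 4 (0.35 and 0.41) across genotypes. Neither the main fit nor the block models such sharing, and its cause was not tested. Over all genes the block gave 710, 1263, 0, 110 and 9 calls. The 4 arrays per group limit the precision.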
